A study of Homo sapiens with 3 samples.

Results

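The genes described here encode the proteins of the mitochondrial ribosome (MRP genes) and were measured by RNA-seq in PLC cells, a human cell line established from a liver carcinoma. Members were taken by name, as every row of the deposited gene tables with a symbol MRPL or MRPS followed by a number and at most 1 letter. This gave 76 genes, each with 1 row in every library, out of 56969 rows in the shDIS3L2 library, 56769 in the shHNRNPU library and 57072 in the control library. By the structure of the mammalian mitochondrial ribosome, 49 of the 76 belong to the large subunit and 26 to the small subunit. MRPS18A and MRPS30 are counted in the large subunit, where their proteins are found despite their names. MRPS36 keeps its name but is known today as a component of the 2-oxoglutarate dehydrogenase complex (KGD4), so it is counted in neither subunit.

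Mitochondrial ribosomes translate the few messages of mitochondrial DNA, which encode membrane subunits of the respiratory chain and of ATP synthase. The ribosomal RNAs are made inside the mitochondrion, whereas every protein of both subunits is encoded in the nucleus, made in the cytosol and imported. Many of these proteins descend from bacterial ribosomal proteins and others were added during mitochondrial evolution. Hepatocytes, from which this kind of tumour arises, are rich in mitochondria.

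There were 3 groups of 1 library each, all of PLC cells harvested 48 h after infection with hairpin viruses. The shDIS3L2 cells received hairpins against DIS3L2, a cytoplasmic exoribonuclease of uridylated RNAs. The shHNRNPU cells received hairpins against HNRNPU, the gene of a nuclear RNA-binding protein with roles in splicing and chromatin. The control cells received a non-targeting hairpin. The labels give neither the number of hairpins per target nor whether they were pooled. With 1 library in a group there is no spread between cultures and no test, and in such bulk RNA fewer cells of a kind and less RNA per cell cannot be told apart. Each FPKM (fragments scaled to transcript length and to the mapped fragments of the library) comes with a deposited interval, given here as a range in parentheses, which covers the estimate within 1 library only.

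The targeted genes were read first. DIS3L2, merged with AC068134.10 in every library, had 3.23 FPKM (2.31 to 4.15) in shDIS3L2, 11.2 (10.0 to 12.4) in shHNRNPU and 7.61 (6.70 to 8.53) in control. HNRNPU, merged in the files with its antisense gene, had 232 FPKM (224 to 241) in shDIS3L2, 33.5 (31.8 to 35.2) in shHNRNPU and 178 (172 to 184) in control. Each target was lowest in its own knockdown library. The bounds of both loci differed between libraries, and another locus overlapped each of them. All 11 hepatocyte markers examined had a mean of at least 1 FPKM, and all 8 measured markers of fibroblasts, blood and endothelium stayed below it, the highest at 0.720 FPKM. Of the 11 hepatocyte markers, 7 were lower and 1, FGB, was higher by size in shDIS3L2, and 4 were lower in shHNRNPU, against control. Their sum was 3505 FPKM in shDIS3L2, 8065 in shHNRNPU and 13795 in control, most of it from SERPINA1, at 2865, 6710 and 11439 FPKM in the same libraries. Depth, estimated from single-exon genes, was 18.2 M fragments in shDIS3L2, 20 M in shHNRNPU and 22.9 M in control. The control table held 0 rows on the mitochondrial chromosome, against 11 in shDIS3L2 and 10 in shHNRNPU, so the mitochondrial ribosomal RNAs and messages were not compared. The part of these differences in the MRP values below was not tested.

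Promoters are shown because many MRP genes are known to share short, TATA-less promoters with sites for ETS-family factors such as GABP, for NRF1 and for YY1. RefSeq promoters (GRCh38.p14, 250 bases before to 50 after the start) matched 67 of the 76 genes with 83 windows. The letters searched, on both strands, were CCGGAAG for ETS, CGCATGCG for NRF1, AAGATGGCG for YY1 and TATAAA for a TATA box. The ETS letters were found in 43.3% of MRP genes, against 34.3% of cytosolic ribosomal protein genes, 22.8% of 8697 genes with a mean of at least 1 FPKM and 12.2% of all 27305 genes with a promoter. The YY1 letters were found in 19.4% of MRP genes, 8.57% of cytosolic ribosomal protein genes, 4.82% of expressed genes and 2.14% of all genes. NRF1 letters were at 4.48% in MRP genes and 4.73% in expressed genes, close to each other, against 1.43% in cytosolic ribosomal protein genes and 2.46% in all. TATA letters were found in 4.48% of MRP genes, fewer than the 10.0% of cytosolic ribosomal protein genes, the 7.99% of expressed genes and the 14% of all genes. Of the 13 MRP genes with YY1 letters, 10 carried them within the 50 bases after the start (76.9%, against 70.4% of expressed genes with these letters). The ETS letters lay mostly just upstream, within 50 bases before the start in 20 of 29 MRP genes (69.0%, against 44.5% of expressed genes with these letters). In 0 of the 83 MRP windows did ETS and YY1 matches share bases. A match is a description of the letters and not a binding site.

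**Figure D1:**
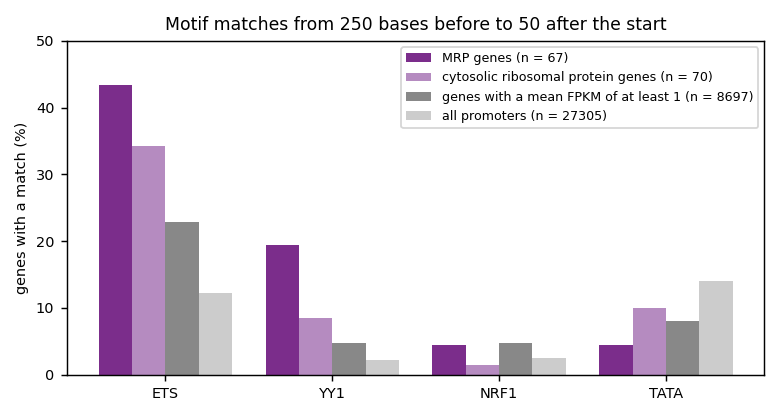
Share of genes (y axis, percent) whose promoter window held the ETS, YY1, NRF1 or TATA letters (x axis), in MRP genes, cytosolic ribosomal protein genes, genes with a mean of at least 1 FPKM and all genes with a promoter. ETS letters reached 43.3% and YY1 letters 19.4% in MRP genes, the tallest bar of each of these motifs, while the TATA bar of MRP genes was at 4.48%.

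The 120 bases before the start are printed for 6 genes on which the results below turn, 5′ to 3′ on the strand of the gene, with matches in capitals.
MRPL47: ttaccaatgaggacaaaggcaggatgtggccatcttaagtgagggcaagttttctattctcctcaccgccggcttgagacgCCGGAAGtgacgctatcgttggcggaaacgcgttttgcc
MRPL27: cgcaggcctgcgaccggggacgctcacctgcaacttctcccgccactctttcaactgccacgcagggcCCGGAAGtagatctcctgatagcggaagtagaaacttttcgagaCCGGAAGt
MRPL17: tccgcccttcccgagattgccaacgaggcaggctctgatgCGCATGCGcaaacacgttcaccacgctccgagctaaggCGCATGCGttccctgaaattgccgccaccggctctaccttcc
MRPL36: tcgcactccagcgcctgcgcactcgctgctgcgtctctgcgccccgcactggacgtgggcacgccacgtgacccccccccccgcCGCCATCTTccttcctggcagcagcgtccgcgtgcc
MRPS25: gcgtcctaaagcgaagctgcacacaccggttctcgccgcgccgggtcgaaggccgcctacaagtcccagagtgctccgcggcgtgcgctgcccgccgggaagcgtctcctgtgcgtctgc
MRPS14: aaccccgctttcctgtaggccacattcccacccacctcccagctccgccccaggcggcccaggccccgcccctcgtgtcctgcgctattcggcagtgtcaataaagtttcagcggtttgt
MRPL47 (chr3:179604639-179604758, minus strand) held 1 ETS match and MRPL27 (chr17:50373185-50373304, minus strand) held 2. The pair of matches in MRPL17 (chr11:6683341-6683460, minus strand) was to the NRF1 letters. In MRPL36 (chr5:1799838-1799957, minus strand) the YY1 letters stood on the opposite strand of the gene. MRPS25 (chr3:15065316-15065435, minus strand) and MRPS14 (chr1:175023426-175023545, minus strand) held no match in these bases. MRPL42, which is described with the comparisons, carried the YY1 letters 9 bases after its start, outside the kind of stretch shown here.

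The ratios of members were also read by promoter letters. Among members above 0 in every library, the median log2 ratio of shDIS3L2 over control was 0.21 in 27 members with the ETS letters and -0.03 in 37 without. For shHNRNPU over control these medians were -0.07 with the ETS letters and -0.01 without, and for shHNRNPU over shDIS3L2 -0.19 and 0.03. For members with YY1 letters (12 above 0) the medians were 0.09 in shDIS3L2 and -0.14 in shHNRNPU against control, beside 0.04 and 0.02 in the 52 without. The NRF1 letters were in 3 members above 0, with medians of 0.26 in shDIS3L2 and -0.32 in shHNRNPU against control. These medians have no test.

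The MRP genes were all expressed and most of them strongly. Over the 76 genes the median level was 93.6 FPKM in shDIS3L2, 79.8 in shHNRNPU and 93.0 in control. The whole table, taken as 11790 features with a mean of at least 1 FPKM (names that share the same loci counted once), had medians of 11.4, 11.7 and 10.6 FPKM in the same libraries. All 76 MRP genes passed that minimum, and 72 had a mean of at least 20 FPKM. Their summed level was 9244 FPKM in shDIS3L2, 8820 in shHNRNPU and 9262 in control. Single genes stood higher or lower within these close totals. For the large subunit the sum was 5822 FPKM in shDIS3L2, 5799 in shHNRNPU and 6005 in control. For the small subunit it was 3260 FPKM in shDIS3L2, 2997 in shHNRNPU and 3234 in control. Over the 54 members above 0 at loci with a single name in every library, the sums were 5797, 5717 and 5787 FPKM in shDIS3L2, shHNRNPU and control.

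The deposited interval of an MRP gene reached a median of 6.47% of its FPKM to either side in shDIS3L2, 6.77% in shHNRNPU and 6.20% in control. Levels spread widely between members. MRPS24, the counterpart of bacterial S3, was the highest in control, at 737 FPKM (709 to 766) in shDIS3L2, 766 (738 to 795) in shHNRNPU and 659 (634 to 685) in control. Its locus is merged with URGCP, so this value covers more than MRPS24. Next came MRPL12, the stalk protein that also binds mitochondrial RNA polymerase, at 304 FPKM (291 to 318) in shDIS3L2, 594 (573 to 616) in shHNRNPU and 599 (578 to 619) in control. MRPL12 was merged with HGS and SLC25A10 in shHNRNPU and control but with SLC25A10 alone in shDIS3L2, where HGS had its own row at 25.4 FPKM, so the library that stood apart was also the one whose locus was cut differently. MRPS34, a mitochondria-specific protein of the small subunit, stood at 305 FPKM (291 to 318) in shDIS3L2, 253 (240 to 266) in shHNRNPU and 393 (375 to 412) in control. Its locus was the same in all libraries, and the intervals of all 3 were apart. At the low end of control were MRPS25 and MRPL1, which are described with the comparisons.

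**Figure D2:**
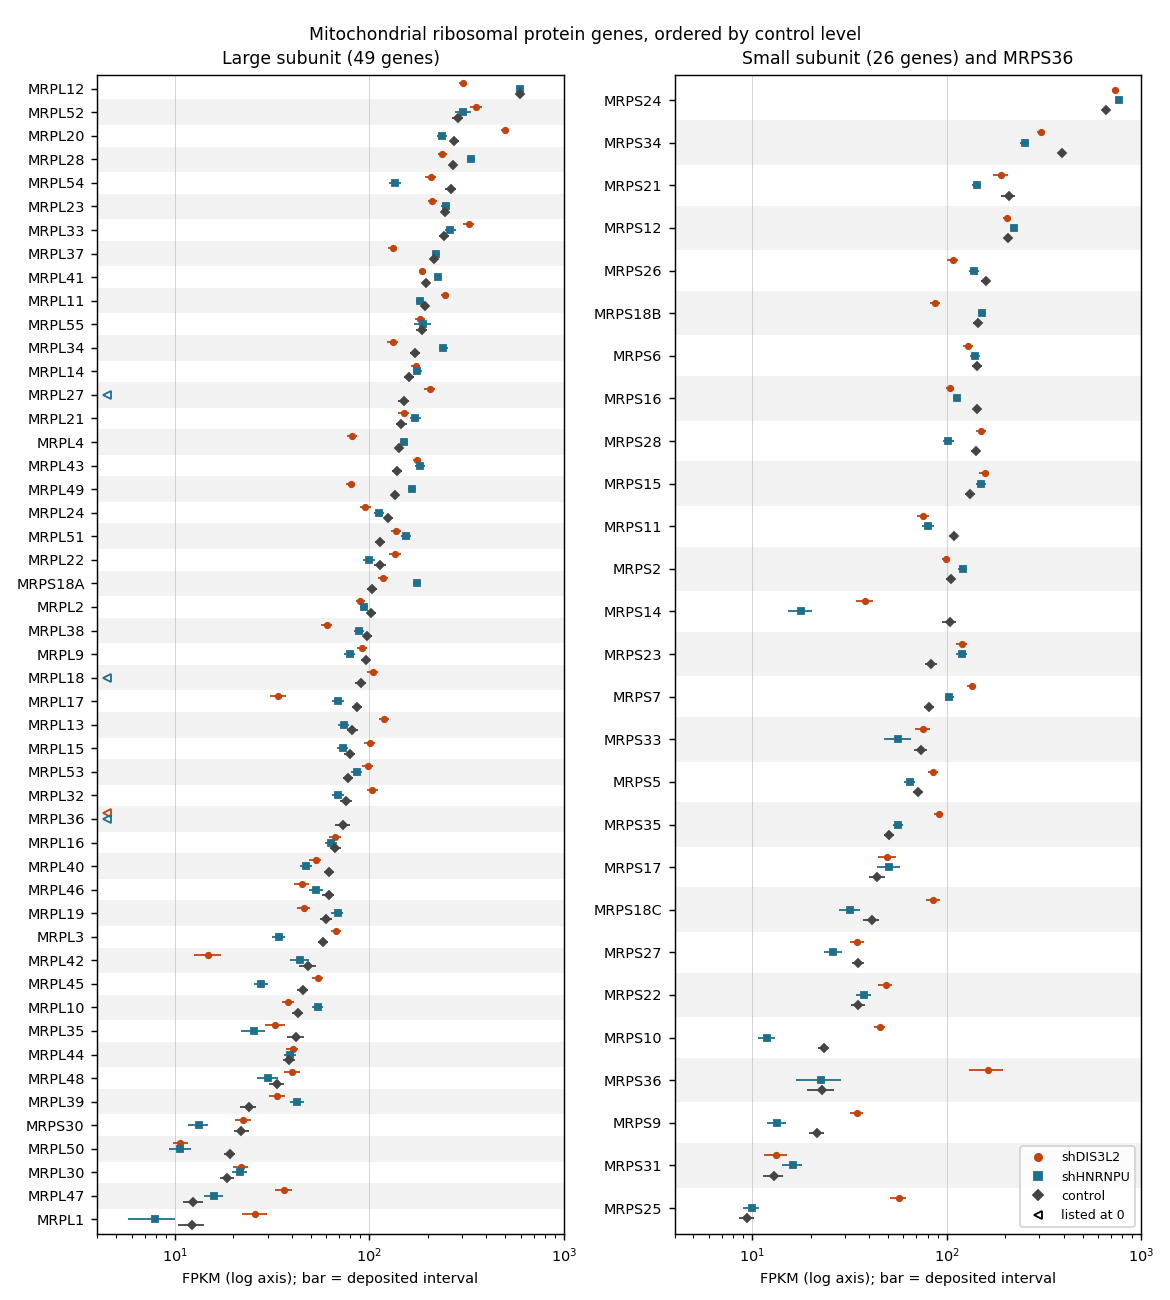
FPKM (x axis, log scale) of the 49 large subunit genes on the left and of the 26 small subunit genes with MRPS36 on the right, ordered by control level, with the deposited interval as a bar and an open triangle for a value listed at 0. MRPS36 and MRPS25 stood far to the right in shDIS3L2, MRPL42 to the left in shDIS3L2 and MRPS14 to the left in both knockdown libraries, while 9 genes such as MRPL44 and MRPS12 had overlapping intervals throughout.

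Files were assembled library by library, and this limits the gene values. Of the 76 members, 19 lay at a locus with several names in some library (25%, against 17.2% of features), as MRPL2 did with CUL7, MRPL33 with BRE, MRPL38 with FBF1 and MRPL53 with CCDC142, 14 had locus bounds that differed between libraries and 22 were overlapped by another locus at 1 FPKM or more. The kit is not stated to keep strand, so fragments of overlapping genes cannot be told apart. There were 30 members with comparable loci, meaning 1 name and the same bounds in every library, values above 0 and no such overlapping locus. The files also name 66 MRP pseudogenes, of 32 members. With a row of its own, 1 of them reached 1 FPKM: MRPL45P2, at 4.25 FPKM in shDIS3L2, 6.98 in shHNRNPU and 2.95 in control.

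The shDIS3L2 library was set against control first, to see which MRP transcripts differ where this nuclease is knocked down. A gene was called higher by size with a log2 ratio of FPKM + 1 of 1 or more, or lower with one of -1 or less, in both cases only where the deposited intervals were apart. In shDIS3L2, 5 of 76 MRP genes were higher by size, a share of 6.58% beside 8.95% of all features, and 4 were lower, 5.26% beside 7.57%. The median log2 ratio was 0.04, against 0.09 over all features. Of the members above 0, 67.1% lay within 0.5 on the log2 scale of no difference, against 57.7% of features. By intervals alone, 31 MRP genes were wholly above control and 25 wholly below, with 20 overlapping. Among features at a mean of 1 FPKM or more, 32.7% were above and 25.3% below by intervals. Because intervals are narrower at high levels, the nearer measure is the features at 20 FPKM or more, of which 41.0% were above and 33.6% below, close to the 41.7% and 33.3% of the 72 MRP genes at that level. These directions depend on the scaling. Median-of-ratios factors take 0.11 off every log2 ratio of shDIS3L2 over control, and then 3 MRP genes were higher by size and 5 lower, 21 were above control and 30 below by intervals, and the median was -0.069. Features turned in the same way, with 3192 above and 3497 below by intervals after rescaling.

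The 2 members with the largest ratios had comparable loci. MRPS36 stood at 163 FPKM (131 to 195) in shDIS3L2, 22.7 (16.9 to 28.6) in shHNRNPU and 22.8 (19.2 to 26.4) in control (hg19, chr5:68513587-68525956). The shDIS3L2 library was high, 7.14-fold over control with a log2 ratio of 2.78, and the other libraries overlapped each other. MRPS25, a mitochondria-specific protein of the small subunit, stood at 56.8 FPKM (51.4 to 62.2) in shDIS3L2, 9.97 (9.04 to 10.9) in shHNRNPU and 9.41 (8.56 to 10.2) in control (hg19, chr3:15083967-15106842). It too was high in shDIS3L2, at 6.04-fold over control and a log2 ratio of 2.47, with overlapping intervals in shHNRNPU and control. MRPS25 had the lowest control level of all members, but in shDIS3L2 it passed MRPL44, at 40.4 FPKM, and MRPS22, at 48.7 FPKM.

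The other 3 genes higher by size had ratios nearer the limit. MRPL47, the counterpart of bacterial L29 at the exit of the peptide tunnel, stood at 36.4 FPKM (32.6 to 40.2) in shDIS3L2, 15.9 (14.2 to 17.7) in shHNRNPU and 12.5 (11.01 to 13.9) in control. All 3 intervals were apart, shDIS3L2 was highest and its log2 ratio over control was 1.47. At its end MRPL47 overlaps ACTL6A, which stood at 17.4 FPKM in shDIS3L2, 23.9 in shHNRNPU and 16.7 in control. MRPS18C, 1 of the 3 human relatives of bacterial S18, stood at 85.7 FPKM (78.7 to 92.7) in shDIS3L2, 32.0 (28.1 to 35.8) in shHNRNPU and 41.1 (37.3 to 45.0) in control, a log2 ratio of 1.04 in shDIS3L2. MRPL1, the protein of the L1 stalk that lines the path of leaving tRNAs, stood at 25.9 FPKM (22.1 to 29.7) in shDIS3L2, 7.88 (5.73 to 10.0) in shHNRNPU and 12.2 (10.4 to 14.1) in control. Its locus was comparable in all libraries, all 3 intervals were apart, and the log2 ratio was 1.02 in shDIS3L2. The ratios of MRPS18C and MRPL1 exceed the limit by less than the shift that rescaling takes off. Just short of the limit were MRPS10 at 0.93, MRPL20 at 0.87 and MRPS35 at 0.84, all with intervals above control.

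Of the 4 members lower in shDIS3L2, 3 were above 0. MRPL42, a mitochondria-specific protein of the large subunit, stood at 14.9 FPKM (12.6 to 17.2) in shDIS3L2, 43.9 (39.0 to 48.7) in shHNRNPU and 48.6 (43.7 to 53.5) in control (hg19, chr12:93861264-93897545). Only shDIS3L2 was low among these 3 libraries, with a log2 ratio of -1.64 to control at a comparable locus. MRPS14, the counterpart of bacterial S14 in the head of the small subunit, stood at 37.9 FPKM (34.1 to 41.7) in shDIS3L2, 17.9 (15.4 to 20.5) in shHNRNPU and 104 (95.01 to 112) in control (hg19, chr1:174979925-174992561). Both knockdown libraries were low and all intervals were apart, with a log2 ratio of -1.43 in shDIS3L2. It overlaps CACYBP, at 81.3 FPKM in shDIS3L2, 136 in shHNRNPU and 94.2 in control. MRPL17, the counterpart of bacterial L17, stood at 34.0 FPKM (30.8 to 37.2) in shDIS3L2, 69.4 (64.5 to 74.3) in shHNRNPU and 87.0 (81.9 to 92.0) in control, a log2 ratio of -1.33 in shDIS3L2. All 3 intervals were apart, and the bounds of its locus differed between libraries.

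The remaining member, MRPL36, the counterpart of the small zinc-binding bacterial L36, was listed at 0 in shDIS3L2 and in shHNRNPU and at 73.0 FPKM (66.6 to 79.4) in control. An exact 0 in these tables can be a failed estimate, and 821 of the 11790 features were at 0 in some library, so no fold is given. Members listed at 0 in some library made up 3.95% of MRP genes and 6.96% of features. MRPL12 at -0.97 was just inside the limit, with its locus cut differently as given above, and MRPL4 at -0.79 followed at a comparable locus.

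**Figure D3:**
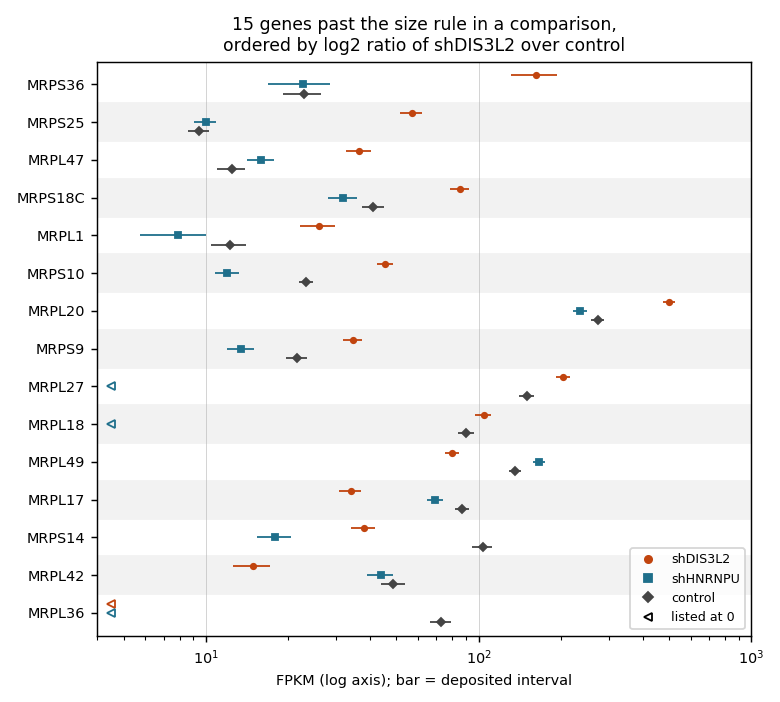
FPKM (x axis, log scale) with deposited intervals of the 15 MRP genes called by size in at least 1 of the comparisons, ordered by the log2 ratio of shDIS3L2 over control, with open triangles for values listed at 0. In the top rows shDIS3L2 stands to the right of both other libraries, at 163 FPKM against 22.7 and 22.8 for MRPS36, and in the row of MRPL42 it stands to the left.

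Knockdown of HNRNPU was compared with the same control. No MRP gene was higher by size (0 of 76, beside 8.32% of features), and 4 were lower, 5.26% beside 7.46%. The median log2 ratio was -0.07, against 0.12 over all features, and 79.5% of members above 0 lay within 0.5 of no difference, against 57.7% of features. By intervals, 16 MRP genes were above control and 26 below, with 34 overlapping. Features stood at 34.9% above and 23.5% below, and at 20 FPKM or more at 40.3% above and 32.8% below. At that level 22.2% of MRP genes were above and 31.9% below, so the share above control was the smaller one in MRP genes. Of all features called by size, 52.7% were higher as deposited and 39.1% after rescaling by median-of-ratios factors, which take 0.18 off every log2 ratio. After that rescaling, 7 MRP genes were above control and 43 below by intervals, and their median log2 ratio was -0.25. Features then stood at 26.1% above and 30.9% below by intervals, with a median of -0.023.

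MRPS14 was the 1 member above 0 that was lower by size, with the levels given above and a log2 ratio of -2.47. In shHNRNPU its neighbour CACYBP was at its highest while MRPS14 was at its lowest, and the part of the overlap in this value was not tested. Besides MRPL36, MRPL18 and MRPL27 were listed at 0. MRPL18, the counterpart of bacterial L18, stood at 104 FPKM (97.4 to 111) in shDIS3L2, 0 in shHNRNPU and 90.3 (84.4 to 96.1) in control. MRPL27, the counterpart of bacterial L27 near the peptidyl transferase centre, stood at 205 FPKM (192 to 217) in shDIS3L2, 0 in shHNRNPU and 151 (141 to 160) in control. For both, shDIS3L2 lay above control with intervals apart.

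The next lowest ratios in shHNRNPU were short of the limit. MRPL54, a mitochondria-specific protein, stood at 206 FPKM (193 to 220) in shDIS3L2, 136 (126 to 146) in shHNRNPU and 262 (245 to 279) in control, a log2 ratio of -0.94 in shHNRNPU. MRPS10, the counterpart of bacterial S10, stood at 45.5 FPKM (42.6 to 48.4) in shDIS3L2, 11.98 (10.8 to 13.2) in shHNRNPU and 23.3 (21.9 to 24.7) in control, a log2 ratio of -0.91 in shHNRNPU, where it was merged with GUCA1B. MRPL50 followed at -0.78, with 10.7 FPKM (9.75 to 11.7) in shDIS3L2, 10.7 (9.33 to 12.1) in shHNRNPU and 19.2 (18.004 to 20.3) in control. Both knockdown libraries were low and overlapped each other, but in control its locus was merged with BAAT. MRPL3, which reaches towards the peptidyl transferase centre, stood at 67.3 FPKM (63.4 to 71.2) in shDIS3L2, 34.4 (31.8 to 36.9) in shHNRNPU and 57.8 (54.6 to 61.1) in control, a log2 ratio of -0.73 in shHNRNPU. MRPL54, MRPS10 and MRPL3 were lowest in shHNRNPU with all intervals apart. MRPL35, the counterpart of bacterial L35, stood at 32.9 FPKM (29.04 to 36.7) in shDIS3L2, 25.5 (22.04 to 29.03) in shHNRNPU and 41.9 (37.6 to 46.2) in control, a log2 ratio of -0.69 in shHNRNPU. MRPL45, which tethers the ribosome to the inner membrane, stood at 54.6 FPKM (50.9 to 58.2) in shDIS3L2, 27.8 (25.5 to 30.04) in shHNRNPU and 45.4 (42.5 to 48.4) in control, a log2 ratio of -0.69 in shHNRNPU. It was lowest in the library where the pseudogene MRPL45P2, given above, was highest.

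The 2 highest ratios in shHNRNPU were those of large subunit members. MRPL39 stood at 33.6 FPKM (30.5 to 36.8) in shDIS3L2, 42.4 (38.9 to 45.9) in shHNRNPU and 24.0 (21.6 to 26.3) in control, a log2 ratio of 0.80 in shHNRNPU and 0.47 in shDIS3L2. MRPS18A, the relative of bacterial S18 found in the large subunit, stood at 118 FPKM (111 to 125) in shDIS3L2, 176 (167 to 185) in shHNRNPU and 104 (97.4 to 110) in control, a log2 ratio of 0.76 in shHNRNPU and 0.19 in shDIS3L2. Both genes had comparable loci and both knockdown libraries above control. MRPS23 of the small subunit stood at 120 FPKM (112 to 128) in shDIS3L2, 119 (112 to 127) in shHNRNPU and 83.3 (77.7 to 89.0) in control. Its knockdown libraries overlapped each other and lay above control, with log2 ratios of 0.52 in shDIS3L2 and 0.51 in shHNRNPU. MRPL34, MRPL51 and MRPL43 followed, with log2 ratios over control of 0.48, 0.44 and 0.39 in shHNRNPU. Each overlaps a locus also higher in shHNRNPU than in control. ABHD8, at MRPL34, stood at 83.6 FPKM in shHNRNPU and 43.1 in control, and was lowest in shDIS3L2, as MRPL34 was. NCAPD2, at MRPL51, stood at 65.2 FPKM in shHNRNPU and 51.1 in control. C10orf2, at MRPL43, stood at 22.2 FPKM in shHNRNPU and was listed at 0 in control. SEMA4G, which also overlaps MRPL43, was lower in shHNRNPU than in control. The part of these loci in the ratios was not tested. The 3 relatives of bacterial S18 had different orders, since MRPS18B, with 87.5 FPKM (82.3 to 92.7) in shDIS3L2, 152 (144 to 160) in shHNRNPU and 144 (137 to 152) in control, was low in shDIS3L2, where MRPS18C was high. MRPS18B overlaps PPP1R10, which was also lowest in shDIS3L2, at 18.8 FPKM beside 31.2 in shHNRNPU and 24.1 in control. MRPS18C overlaps FAM175A, at 2.53 FPKM in shHNRNPU and listed at 0 in shDIS3L2 and control. The part of these loci in the contrast was not tested.

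The knockdown libraries were also set against each other. In shHNRNPU against shDIS3L2, 3 MRP genes were higher by size (MRPL42 at 1.497, MRPL49 at 1.05 and MRPL17 at 1.01), 3.95% beside 10.2% of features. There were 11 lower, 9 of them above 0, a share of 14.5% beside 10.5% of features. The 9 were MRPS36 at -2.79, MRPS25 at -2.40, MRPS10 at -1.84, MRPL1 at -1.60, MRPS18C at -1.39, MRPS9 at -1.30, MRPL47 at -1.14, MRPL20 at -1.08 and MRPS14 at -1.04. By intervals, 22 MRP genes were higher and 34 lower, beside 31.8% and 28.4% of features, and 38.5% and 37.9% of features at 20 FPKM or more. At that level MRP genes had 30.6% higher and 44.4% lower. The median log2 ratio was -0.05, against 0.03 over all features.

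Some of these genes were called in this comparison alone. MRPL20, the counterpart of bacterial L20, stood at 236 FPKM (222 to 250) in shHNRNPU, 500 (474 to 525) in shDIS3L2 and 274 (259 to 289) in control, highest in shDIS3L2, with RN7SL657P in the same locus. MRPS9, the counterpart of bacterial S9, stood at 13.5 FPKM (11.9 to 15.0) in shHNRNPU, 34.6 (31.8 to 37.3) in shDIS3L2 and 21.6 (19.7 to 23.5) in control. It lay below control in shHNRNPU and above it in shDIS3L2 at a comparable locus. MRPL49 stood at 167 FPKM (159 to 175) in shHNRNPU, 80.1 (75.6 to 84.6) in shDIS3L2 and 136 (130 to 143) in control, the opposite order. MRPL49 overlaps the much higher FAU locus, which stood at 1774 FPKM in shHNRNPU, 1651 in shDIS3L2 and 1684 in control.

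By the order of the 3 libraries, 23 MRP genes (30.3%) had intervals apart in all 3 comparisons, beside 26% of features. Among genes at 20 FPKM or more these shares were 30.6% of MRP genes and 42.4% of features. The most frequent order, shDIS3L2 above control above shHNRNPU, held for 9 of the 23 (39.1%, beside 20.8% of the features apart in all 3 comparisons), namely MRPL1, MRPL3, MRPL18, MRPL20, MRPL27, MRPL45, MRPS9, MRPS10 and MRPS18C. In 2 genes, MRPL47 and MRPS7, both knockdown libraries were above control with shDIS3L2 highest (8.70%, beside 16.3% of those features). In MRPL39 and MRPS18A they were above control with shHNRNPU highest (8.70%, beside 16.5%). MRPS7 overlaps MIF4GD, at 41.6 FPKM in control and listed at 0 in both knockdown libraries. It also overlaps GGA3, at 28.6 FPKM in shHNRNPU, 11.7 in control and 0 in shDIS3L2. The part of these loci in the order of MRPS7 was not tested. Control was the highest library in 7 of the 23. With shHNRNPU lowest these made up 17.4% of the 23, beside 10.6% of those features, and with shDIS3L2 lowest 13.0%, beside 12.5%. In MRPL28, MRPL34 and MRPL49 (13.0%, beside 23.3%) shHNRNPU was above control and control above shDIS3L2. After rescaling, an alternative added for these orders after the data were seen, 25 MRP genes were apart in all 3 comparisons. This was 32.9%, beside 25.1% of features. The most frequent order held for 10 of the 25, beside 23.3% of the features then apart in all 3 comparisons. Control was highest in 12 of the 25. Features turned in the same way, to 16.2% with control highest and shHNRNPU lowest, and 18.9% with control highest and shDIS3L2 lowest. The orders with both knockdown libraries above control then held for 1 gene each, beside 12.4% (shDIS3L2 highest) and 10.0% (shHNRNPU highest) of those features. That with shHNRNPU above control above shDIS3L2 held for 1, beside 19.2%. At the other end, 9 genes (11.8%, beside 19.7% of features) overlapped in every comparison as deposited: MRPL14, MRPL16, MRPL30, MRPL44, MRPL55, MRPS6, MRPS12, MRPS17 and MRPS31. Among genes at 20 FPKM or more the shares turned, with 11.1% of MRP genes and 6.39% of features overlapping in every comparison. MRPL44 stood at 40.4 FPKM (37.5 to 43.3) in shDIS3L2, 39.2 (36.4 to 41.9) in shHNRNPU and 38.7 (36.1 to 41.3) in control. MRPS12, the counterpart of bacterial S12 at the decoding site, stood at 204 FPKM (195 to 213) in shDIS3L2, 221 (212 to 231) in shHNRNPU and 207 (198 to 217) in control. It overlaps the merged locus of SARS2, at 52.7 FPKM in shDIS3L2, 38.7 in shHNRNPU and 99.5 in control. The part of this overlap in the MRPS12 values was not tested.

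**Figure D4:**
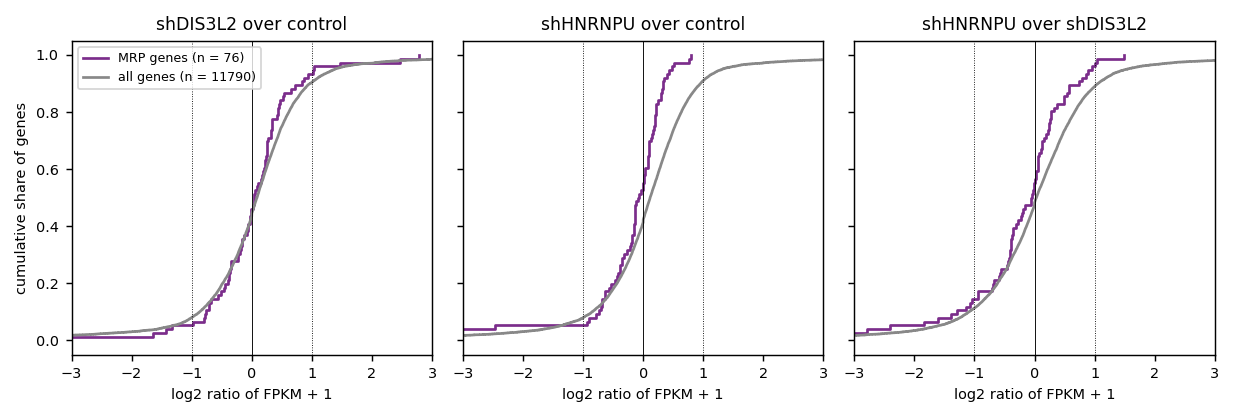
Cumulative share of genes (y axis) by log2 ratio of FPKM + 1 (x axis, cut at -3 and 3) for the 76 MRP genes and for 11790 features, with dotted lines at -1 and 1. The MRP curve is steepest near 0 for shHNRNPU over control, where it ends below 1 on the right, and the flat tail at the left edge of that panel holds the members listed at 0.

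The subunits were set beside other gene groups of ribosomes and mitochondria. Large subunit genes had median log2 ratios of 0.03 in shDIS3L2 and -0.08 in shHNRNPU against control, and small subunit genes 0.07 and -0.09. For shHNRNPU against shDIS3L2 the medians were -0.00 in the large and -0.32 in the small subunit, where 4 of 26 genes (15.4%) were higher and 14 (53.8%) lower by intervals. In that comparison 18 of 49 large subunit genes (36.7%) were higher and 19 (38.8%) lower by intervals, beside 38.5% and 37.9% of features at 20 FPKM or more. Of 92 cytosolic ribosomal protein genes, 84 had a mean of at least 1 FPKM. Their medians were 0.20 in shDIS3L2 and -0.25 in shHNRNPU against control, and -0.44 between the knockdowns. The 73 nuclear-encoded oxidative phosphorylation genes with that mean, of 77, had medians of 0.14, -0.06 and -0.23 in the same comparisons. By size, 2 cytosolic ribosomal protein genes were higher (2.38%) and 0 lower in shDIS3L2 against control, beside 8.95% and 7.57% of features. In shHNRNPU against control 0 were higher and 3 lower (3.57%), beside 8.32% and 7.46% of features. The difference between these groups and the MRP genes has no test with 1 library in a group.

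Members were also split by descent. Large subunit proteins with a bacterial counterpart (29 genes) had 0.04 in shDIS3L2 and -0.12 in shHNRNPU against control, and mitochondria-specific ones (19 genes) 0.03 and 0.02. In the small subunit the medians were 0.13 and -0.24 for the 16 with a bacterial counterpart and 0.04 and 0.08 for the 10 mitochondria-specific ones. For shHNRNPU against shDIS3L2 the medians were -0.06 and 0.05 in these classes of the large subunit, and -0.22 and -0.32 in those of the small subunit, bacterial counterparts before mitochondria-specific proteins. MRPL55 was left out of this split. MRPS18A and MRPS18B, though relatives of bacterial S18, were counted as mitochondria-specific, and MRPS18C among the bacterial counterparts, so the classes do not follow descent strictly.

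**Figure D5:**
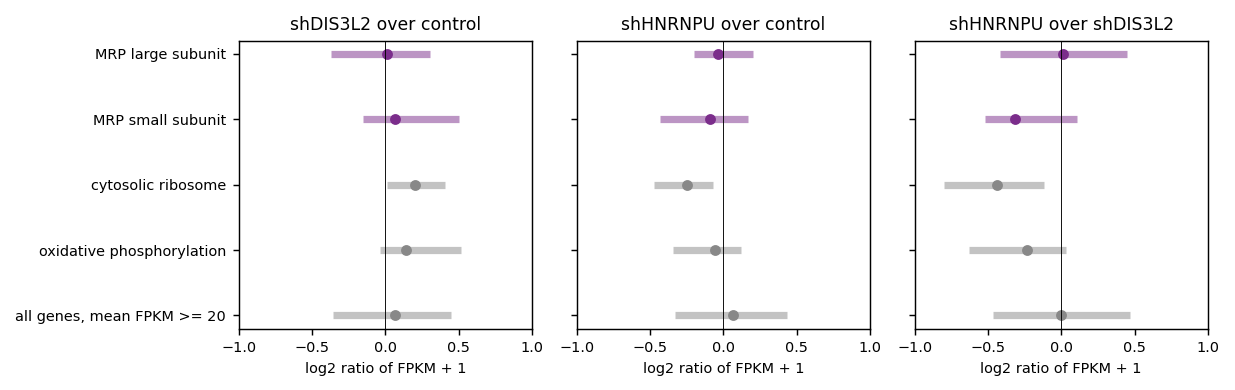
Median (point) and quartiles (bar) of log2 ratios of FPKM + 1 (x axis) over genes above 0 in every library, for both MRP subunits, cytosolic ribosomal protein genes, oxidative phosphorylation genes and all features at 20 FPKM or more. MRP medians stay near 0 in both comparisons with control, while for shHNRNPU over shDIS3L2 the small subunit stands at -0.32 and the cytosolic ribosome at -0.44.

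Among the 30 members with comparable loci, 3 genes, MRPS36, MRPS25 and MRPL1, were higher by size in shDIS3L2 against control (beside 7.31% of 4553 comparable features) and 1, MRPL42, was lower (beside 4.41%). In shHNRNPU against control 0 were higher and 0 lower, beside 6.26% and 5.18%. In shHNRNPU against shDIS3L2, 1 was higher (MRPL42) and 4 lower (MRPS36, MRPS25, MRPL1 and MRPS9), beside 7.14% and 8.74%. MRPS14, MRPL47 and MRPS18C are not among the 30 because of overlapping loci, and MRPL17 because of its bounds.

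Other genes that mitochondrial ribosomes depend on were read from lists by function. Their counts by size stand beside the shares of all features given above, 8.95% higher and 7.57% lower in shDIS3L2 and 8.32% higher and 7.46% lower in shHNRNPU against control, and in lists this short each gene weighs heavily. Of the 7 further subunits not named MRP, 1 was lower by size in shDIS3L2 and 0 in shHNRNPU against control. This was PTCD3 (MRPS39), a small subunit protein that helps deliver messages, at 7.65 FPKM (5.48 to 9.83) in shDIS3L2, 31.9 (28.7 to 35.0) in shHNRNPU and 18.1 (16.0 to 20.2) in control. All its intervals were apart, lowest in shDIS3L2 and highest in shHNRNPU. Of 13 listed translation factors of mitochondria, MTIF3, GFM2 and C12orf65 were at 0 in all 3 libraries. Of the 10 with a mean of at least 1 FPKM, 1 was higher in shDIS3L2 (MTRF1) and 2 were lower in shHNRNPU. MRRF, the ribosome recycling factor, stood at 16.6 FPKM (15.0 to 18.3) in shDIS3L2, 6.06 (5.07 to 7.05) in shHNRNPU and 19.8 (18.1 to 21.4) in control. The initiation factor gene MTIF2 was listed at 0 in shHNRNPU, with 13.6 FPKM in shDIS3L2 and 8.79 in control.

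Of 26 listed assembly factors, NOA1 and PTCD1 were at 0 in all 3 libraries. Of the 24 with a mean of at least 1 FPKM, 3 were higher and 5 lower in shDIS3L2 against control. In shHNRNPU against control 1 was higher and 3 were lower. Those higher in shDIS3L2 were MTG2, FASTKD2 and RPUSD4, and those lower were MTG1, MRM1, TFB1M, RPUSD3 and YBEY. MTG2 was merged with SS18L1 in both knockdown libraries and stood alone in control, and MTG1 was merged with PAOX throughout. FASTKD2, which binds the large ribosomal RNA of mitochondria, stood at 12.1 FPKM (10.2 to 13.9) in shDIS3L2, 5.38 (4.63 to 6.12) in shHNRNPU and 3.82 (3.23 to 4.40) in control, highest in shDIS3L2 with all intervals apart. MRM1, a methyltransferase of the same RNA, stood at 6.71 FPKM (5.75 to 7.66) in shDIS3L2, 13.2 (11.8 to 14.5) in shHNRNPU and 20.9 (19.2 to 22.6) in control, the opposite order. For both FASTKD2 and MRM1 the bounds of the locus differed between libraries. The 3 lower in shHNRNPU, TFB1M, RPUSD3 and YBEY, were listed at 0 in both knockdown libraries, and RPUSD4, the 1 higher in shHNRNPU, was listed at 0 in control. Of 20 mitochondrial tRNA synthetases, 0 were higher, 1 was lower in shDIS3L2 (PARS2) and 2 were lower in shHNRNPU. IARS2, the isoleucine enzyme, was at 38.0 FPKM (35.7 to 40.2) in shDIS3L2, 15.8 (14.5 to 17) in shHNRNPU and 41.0 (38.8 to 43.3) in control.

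A list of 16 genes covered mitochondrial DNA upkeep, transcription, and the processing and decay of mitochondrial RNA. Their median log2 ratios were 0.62 in shDIS3L2 and 0.28 in shHNRNPU against control, beside 0.09 and 0.12 over all features. Median-of-ratios factors take 0.11 and 0.18 off these comparisons, for these genes and for features alike. Some of the 16 lay at merged loci, as KIAA0391 did with PSMA6. By size 1 of the 16 was higher in each knockdown library, C10orf2, the mitochondrial DNA helicase, which was listed at 0 in control.

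The list of nuclear regulators held 9 genes, 5 of them with a mean of at least 1 FPKM, of which 0 were called by size in shDIS3L2 and 2 were higher in shHNRNPU against control. Of the factors whose promoter letters were searched, YY1 itself was higher by size in shHNRNPU, at 15.4 FPKM (14.1 to 16.6) in shDIS3L2, 42.2 (39.6 to 44.8) in shHNRNPU and 12.6 (11.6 to 13.6) in control, a log2 ratio of 1.67. GABPB1, a subunit of the ETS-family factor GABP, stood at 7.30 FPKM (6.03 to 8.57) in shDIS3L2, 18.3 (16.5 to 20.1) in shHNRNPU and 7.41 (6.22 to 8.59) in control, a log2 ratio of 1.202 in shHNRNPU. Both stood highest in shHNRNPU. The bounds of both loci differed between libraries, and another locus overlapped each. YY1 was merged with RP11-638I2.6 in shDIS3L2 alone. GABPA, the DNA-binding subunit of GABP, was listed at 0 in all 3 libraries. NRF1, merged with RNA5SP244, was not called by size, at 6.29 FPKM (5.07 to 7.51) in shDIS3L2, 8.82 (7.58 to 10.05) in shHNRNPU and 6.78 (5.78 to 7.77) in control. Its control interval overlapped those of both knockdown libraries. These levels do not measure the factors' proteins or their binding.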

How the data were processed

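RNA-seq of PLC cells, 1 library each of shDIS3L2, shHNRNPU and control, was used as deposited. The submitters' processing notes name TopHat2 2.0.12, Cufflinks 2.2.1 and the build hg19. Per the file headers, the authors deposited FPKM for each gene together with 2 bounds and a status flag. The bounds were taken as 95% intervals, a level the headers do not give. FPKM were used without rescaling. Names were matched across libraries after splitting merged loci at commas, and where a name had several loci, the highest FPKM in each library was used. A gene entered when its mean FPKM over the 3 libraries was at least 1. A pseudocount of 1 was added before log2 ratios were taken, which shrinks the ratios of low genes.

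Fragment counts recovered from low values of single-exon genes of at least 2000 bases (94 genes in shDIS3L2, 100 in shHNRNPU, 85 in control) were whole within 0.02 for 75.5%, 74.0% and 74.1% of genes, too few for a count test, so none was run. The depth quartiles were 17.8 and 18.6 M in shDIS3L2, 19.5 and 20.5 M in shHNRNPU, and 22.3 and 23.4 M in control. FPKM give no sampling floor here, and intervals cover the estimate only.

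The MRP genes, the other lists, the subunit classes and the comparable loci were chosen with earlier results of these data known. The rule for named members took those called by size, the 6 highest and 6 lowest ratios against control, the 6 highest and 6 lowest control levels, those listed at 0 and those at loci with several names, of which only some are printed with values. Other members named were picked after their values were seen. The motifs were searched after the data were seen. The calling script was checked on simulated data. Python 3.11.15 with pandas 2.3.3, numpy 2.4.6 and matplotlib 3.10.9 was used.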

Additional observations from a re-analysis of the deposited data

How the results depend on the processing

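The 5 values of each comparison (counts by size and by intervals, and the median) were recomputed under 10 alternatives. Of 150 values, 130 stayed close to the reported ones, counts within 1.5 times and medians within 0.1, but many of these could not move. All 76 members passed a minimum mean of 5 FPKM and had 1 row each. Changing the minimum or summing the loci of a name therefore repeated every value. A pseudocount cannot change counts by intervals. Rescaling moved 6 of its 15 values, and the comparable loci moved 11 of 15. With a pseudocount of 5, 3 MRP genes were higher by size in shDIS3L2 against control. Median-of-ratios rescaling gave 3 higher genes and a median of -0.069 in shDIS3L2 against control. In shHNRNPU against control it gave a median of -0.25, with 7 genes above and 43 below by intervals, beside 26.1% and 30.9% of features. In shHNRNPU against shDIS3L2 it gave 1 gene higher by size. Over all features it gave 720 higher and 1123 lower in shHNRNPU against control, where 981 and 879 were called as deposited, as the factors take 0.18 off every log2 ratio there (0.11 in shDIS3L2 against control) and put the median of features at -0.023, where it was 0.12. Without genes listed at 0, 1 MRP gene was lower in shHNRNPU against control. Without loci of several names, the median of shHNRNPU against shDIS3L2 was -0.16. On the 30 comparable loci, an alternative added after seeing the data, the counts of genes higher by size, lower by size, above and below by intervals were 3, 1, 14 and 7 in shDIS3L2 against control, 0 lower by size, 8 and 7 by intervals in shHNRNPU against control, and 1, 4, 10 and 14 in shHNRNPU against shDIS3L2. These smaller counts come with fewer genes tested. The other causes were not tested. No paired analysis was possible because each group has 1 library. Without replicates, no library could be left out.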
